A study of Mus musculus with 9 samples.

Results

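The genes described here are 10 markers of lung endothelium, the cells that line blood vessels: Pecam1, Cdh5, Kdr, Gpihbp1, Ednrb, Apln, Aplnr, Plvap, Car4 and Vwf. They were found as all probes, control spots aside, whose RefSeq transcript carries one of these symbols. That gave 12 of the 56605 probes on the array, 3 for Ednrb and 1 for each other gene, and 10 of the 16843 genes tested. All 10 genes and all 12 probes passed the filter on dim probes.

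The study measured RNA from whole lungs of 9 mice on 9 one-colour arrays, in 3 groups of 3. Every mouse carried floxed alleles of Terf1 (TRF1flox/flox), the gene of the telomere protein TRF1, and every mouse was given tamoxifen, 250 mg/kg each week, starting when 8 weeks old. Control lungs came from littermates without cre, taken when 11 months old, after 9 months of the drug. Lungs of SPC-creTRF1flox/flox mice were taken when 5 months old, after 3 months of the drug (3-month cre), or when 11 months old, after 9 months of it (9-month cre). The promoter that drives cre is that of surfactant protein C, made by alveolar type 2 epithelial cells, so endothelial cells are not its intended target. A control of the 3-month age was not analysed here, so genotype, age and exposure differ together between 3-month cre lungs and controls. In RNA from whole tissue, fewer cells of a type and less RNA per cell cannot be told apart, and this holds for every gene below.

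Endothelial cells of the lung share a set of genes and also fall into specialised types. Pecam1 and Cdh5 encode adhesion proteins of endothelial cell junctions, and Kdr encodes the main signalling receptor for vascular endothelial growth factor A. In the mouse alveolus, capillary cells called aerocytes, which lie against the gas exchange surface, carry Car4, Ednrb and Apln and much Kdr, whereas general capillary cells carry Gpihbp1, Aplnr and Plvap and can renew the capillary bed. Apelin, the product of Apln, is the ligand of the receptor encoded by Aplnr, so the aerocyte makes a ligand whose receptor is on the neighbouring general capillary cell. Vwf encodes von Willebrand factor, a clotting protein stored in Weibel-Palade bodies, and is most prominent in larger vessels and veins.

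The promoters of the members on which the comparisons turn are shown first, since Kdr was the member that fell against controls and Ednrb, Apln and Car4 were the members that fell between the cre groups. RefSeq promoter windows matched 4 of the 10 members by symbol. The 250 bases before the start that the RefSeq window table uses are printed in the direction of transcription, on GRCm38.p6 at chr5:75978456-75978705 (minus strand) for Kdr, chr14:103843702-103843951 (minus strand) for Ednrb, chrX:48034854-48035103 (minus strand) for Apln and chr11:84957504-84957753 (plus strand) for Car4. The windows of Apln and Car4 adjoin the RefSeq gene spans given below, whereas those of Kdr and Ednrb lie inside the 5′ end of theirs, so for these genes the window table uses a start downstream of the outermost one. Capitals mark GGAAG on either strand (CTTCC on the printed one), the core letters bound by ETS factors, a family that includes the endothelial regulators Erg and Fli1.
Kdr: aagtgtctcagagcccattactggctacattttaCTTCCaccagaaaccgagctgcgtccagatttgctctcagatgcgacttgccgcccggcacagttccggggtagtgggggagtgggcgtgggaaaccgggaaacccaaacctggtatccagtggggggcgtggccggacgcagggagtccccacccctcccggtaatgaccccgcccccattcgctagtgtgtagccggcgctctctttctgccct
Ednrb: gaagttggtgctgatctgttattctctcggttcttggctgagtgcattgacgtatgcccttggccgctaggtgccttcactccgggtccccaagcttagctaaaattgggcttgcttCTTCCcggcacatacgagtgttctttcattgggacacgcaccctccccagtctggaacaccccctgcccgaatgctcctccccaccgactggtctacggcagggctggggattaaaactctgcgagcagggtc
Apln: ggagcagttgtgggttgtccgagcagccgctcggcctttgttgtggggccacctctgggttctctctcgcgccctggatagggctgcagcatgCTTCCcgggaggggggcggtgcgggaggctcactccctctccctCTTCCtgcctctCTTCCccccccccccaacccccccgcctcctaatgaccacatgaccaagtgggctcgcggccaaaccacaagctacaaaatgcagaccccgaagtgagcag
Car4: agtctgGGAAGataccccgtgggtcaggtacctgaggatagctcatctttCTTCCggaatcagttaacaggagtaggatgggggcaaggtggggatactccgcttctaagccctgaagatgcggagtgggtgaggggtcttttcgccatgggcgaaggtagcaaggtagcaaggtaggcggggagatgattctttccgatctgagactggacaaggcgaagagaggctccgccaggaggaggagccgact
GGAAG or its complement occurred 1 time in the Kdr window, 1 time in that of Ednrb, 3 times in that of Apln and 2 times in that of Car4. The same letters occurred in 64.1% of the 32851 promoter windows of equal length, so most promoters hold them. The letters ACGTG or GCGTG on either strand, the core bound by hypoxia-inducible factors, occurred 2 times for Kdr and 1 time for Ednrb (GCGTG in each case) and were not found for Apln or Car4, against 38.6% of all windows. These matches describe letters, not binding.

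The arrays were alike in brightness, with a 75th percentile of processed signal of 958 to 1430 intensity units over a median local background of 28 to 35 units, and 0 spots were saturated. Terf1 was at -0.37, -0.05 and 0.20 in controls, -0.58, -0.68 and -0.62 in 3-month cre lungs and -0.41, -0.97 and -0.39 in 9-month cre lungs, as log2 signal relative to the 75th percentile of the array. All cre lungs lay below all controls in Terf1, but neither difference was called (-0.55 ± 0.19 at 3 months and -0.52 ± 0.19 at 9 months, SE, adjusted p = 0.19 and 0.131) in tissue in which most cells are not type 2 cells. Whether the probe lies inside the floxed part is not given here. The groups also differ by slide and by sex. The 3 controls shared slide 1 with 3-month cre replicate 1, and the other 5 arrays were on slide 2. Xist and Y-linked probes read all 3 controls as male and each cre group as 1 male (3-month cre replicate 2 and 9-month cre replicate 1) and 2 females. Of 28 pan-endothelial marker genes listed, 28 were well above background on all 9 arrays. Each member probe was well above background on all 9 arrays, except 1 of the 3 Ednrb probes on 9-month cre replicate 3.

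Set against controls of the same age and exposure, 9-month cre lungs had less Kdr transcript, while their Pecam1 and Gpihbp1 levels overlapped those of controls. Of the 10 members, 1 fell (Kdr) and 0 rose at an adjusted p under 0.05 in limma, where 2.81% of all genes fell, 3.65% rose and 6.45% changed in either direction. All 3 arrays of the 9-month cre group lay below all 3 controls for 4 members, Kdr, Ednrb, Apln and Plvap, and 15% of all genes showed that order. At an unadjusted p under 0.05, 4 members were lower (12.5% of all genes) and 0 higher (14.8%). The median log2 fold change was -0.44 over the members and 0.024 over all genes tested, with 8 of 10 members below 0 against 47.2% of all genes.

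Between 3-month cre lungs and controls, 0 members were called, where 0.451% of all genes were (0.368% higher and 0.0831% lower). Car4, at 0.71 ± 0.19 (SE), was the only member with an unadjusted p under 0.05 (11.6% of all genes were higher at that p and 7.09% lower). The 3-month cre arrays lay above all controls for Pecam1, Ednrb and Car4, an order seen in 19.6% of all genes, and below them for Cdh5, an order seen in 11.4%. The median over the members was 0.078, against 0.054 over all genes, and 4 of 10 members were below 0, against 42.4% of all genes.

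Between the cre groups, 3 of the 10 members fell from 3 to 9 months of tamoxifen, namely Ednrb, Apln and Car4, the 3 aerocyte genes of the set, and 0 rose. Among all genes 3.2% fell, 1.79% rose and 4.99% changed in either direction. The 9-month arrays lay below all 3-month arrays for these 3 genes and for Kdr, an order seen in 19% of all genes. They were also the 4 members lower at an unadjusted p under 0.05, as were 16% of all genes, with 0 higher (12.7%). The median over the members was -0.52, against -0.028 over all genes, and 7 of 10 members were below 0, against 53.1% of all genes. This comparison and the one against controls share the 9-month cre arrays, and both comparisons against controls share the control arrays, so they are not independent of each other.

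**Figure D1:**
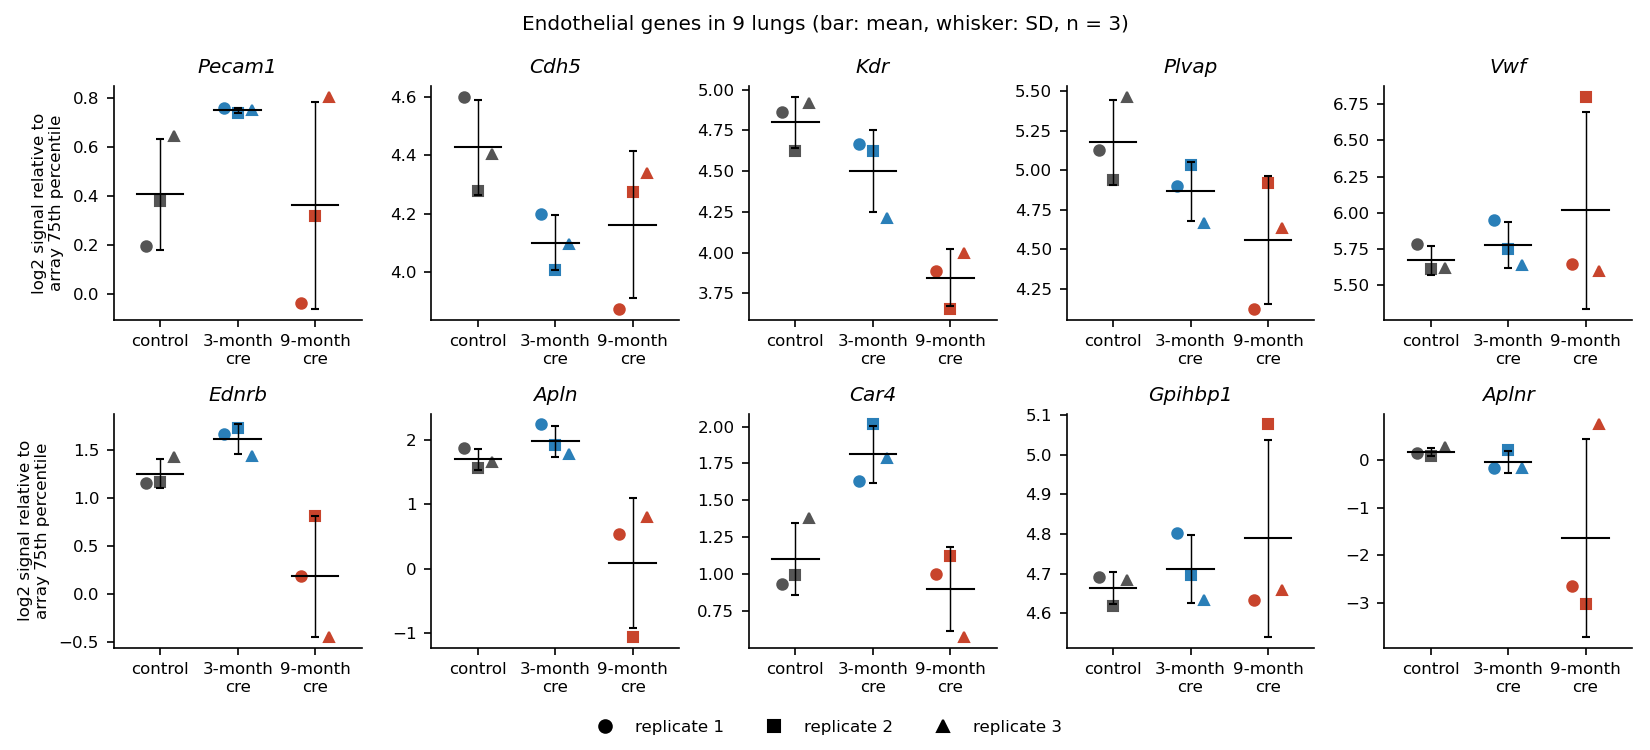
Log2 signal relative to the array 75th percentile (vertical axis, scaled separately for each gene) of the 10 endothelial genes in each lung, by group (horizontal axis). Points are lungs with shapes giving the replicate, bars are means and whiskers are SDs of 3 lungs. The 9-month cre lungs lie below both other groups for Kdr, Ednrb and Apln, while 1 lung stands apart for Aplnr (0.74) and another for Vwf (6.80).

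**Figure D2:**
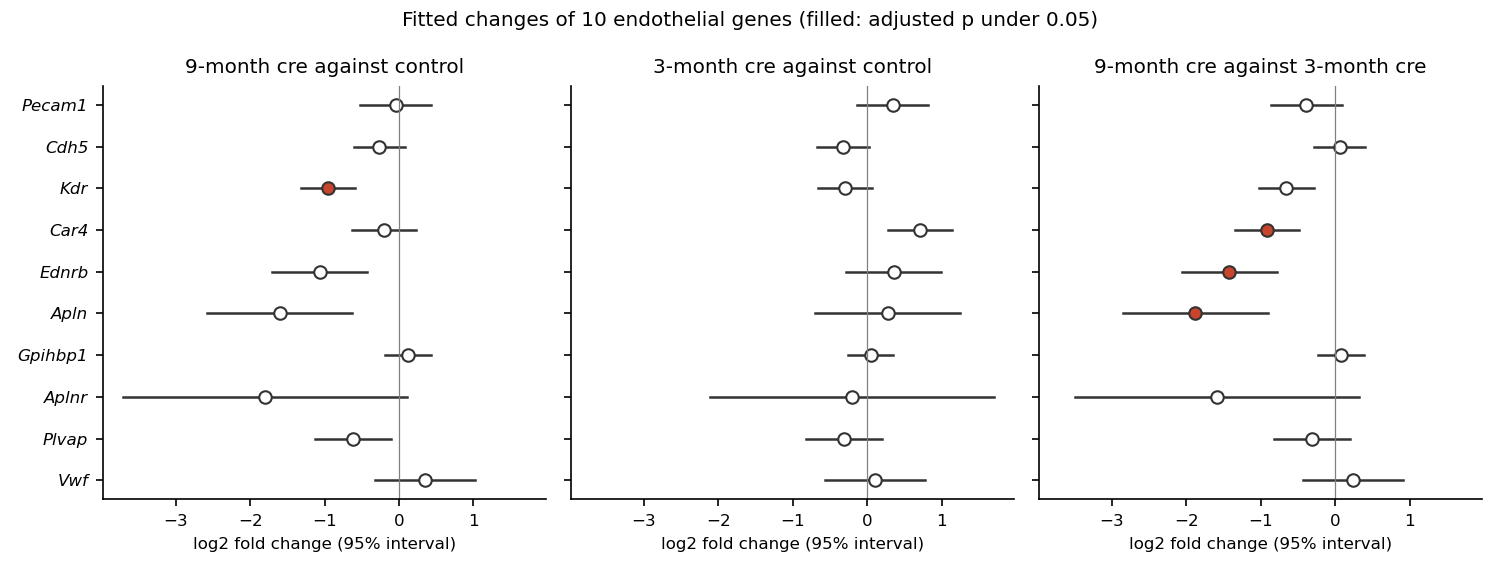
Fitted log2 fold change of each gene with its 95% interval in the 3 comparisons. Filled points passed an adjusted p under 0.05: Kdr against controls at 9 months, and Car4, Ednrb and Apln between the cre groups.

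The general endothelial members did not move together. Pecam1 (chromosome 11, 106654213 to 106715281) was at 0.20, 0.38 and 0.65 in controls, 0.76, 0.74 and 0.75 in 3-month cre lungs and -0.04, 0.32 and 0.80 in 9-month cre lungs. The 9-month cre lungs spanned the whole control range and more. The log2 fold change was -0.045 ± 0.21 against controls (95% interval -0.52 to 0.43, adjusted p = 0.906).

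Cdh5 (chromosome 8, 104101613 to 104144504), the gene of vascular endothelial cadherin, was at 4.60, 4.28 and 4.40 in controls, 4.20, 4.01 and 4.10 in 3-month cre lungs and 3.87, 4.28 and 4.34 in 9-month cre lungs. The 3-month cre lungs all lay below the controls, and the 9-month cre lungs overlapped them. The fold changes were -0.33 ± 0.15 at 3 months (95% interval -0.67 to 0.02, adjusted p = 0.286) and -0.26 ± 0.15 at 9 months (-0.61 to 0.08, adjusted p = 0.285), and neither was called.

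Kdr (chromosome 5, 75932827 to 75979072) was at 4.86, 4.62 and 4.92 in controls, 4.67, 4.63 and 4.21 in 3-month cre lungs and 3.89, 3.65 and 4.0 in 9-month cre lungs. The order of the group means was control, 3-month cre, 9-month cre, with the first pair overlapping and the 9-month cre lungs below every other lung. Against controls Kdr fell by 0.96 ± 0.16 on the log2 scale, 1.94-fold (95% interval -1.32 to -0.59, adjusted p = 0.0199), a value lower than those of all but 2.37% of genes. The difference of -0.66 ± 0.16 between the cre groups had an adjusted p of 0.0531. The call against controls was lost with the slide as a block (-0.71, adjusted p = 0.977), a fit that links the slides only through the 3-month cre lungs, and with animal sex as a covariate (-0.87, adjusted p = 0.0869). Among males alone the value was -0.92 (adjusted p = 0.123). The call was also lost without control replicate 1, 2 or 3 or 9-month cre replicate 1, with an adjusted p of 0.026 to 0.0584 over the 9 fits that leave out 1 array each.

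Ednrb (chromosome 14, 103814615 to 103844508) encodes the endothelin B receptor, which clears endothelin and, in endothelial cells, triggers nitric oxide release. Its brightest probe, of transcript NM_007904, was at 1.16, 1.17 and 1.43 in controls, 1.67, 1.72 and 1.43 in 3-month cre lungs and 0.18, 0.81 and -0.45 in 9-month cre lungs. All 9-month cre lungs lay below all other lungs. Ednrb fell by 1.42 ± 0.28 between the cre groups, 2.69-fold (adjusted p = 0.0368), and the difference of -1.07 ± 0.28 from controls had an adjusted p of 0.0577.

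The 3 Ednrb probes did not agree on the 3-month cre lungs. The probe of NM_001276296 was at -1.92, -2.06 and -1.23 in controls, -1.32, -1.12 and -1.43 in 3-month cre lungs and -3.62, -2.40 and -3.48 in 9-month cre lungs. It followed the brightest probe, with a fall of 1.88 ± 0.34 between the cre groups in the fit over probes (adjusted p = 0.0323). The dimmest probe, of NM_001136061, was at -3.12, -3.88 and -3.96 in controls, -4.33, -5.21 and -4.79 in 3-month cre lungs and -5.14, -4.14 and -6.15 in 9-month cre lungs, the last not well above background. Its 3-month cre lungs lay below the controls (-1.13 ± 0.48, adjusted p = 0.207), where the other 2 probes had values of 0.36 and 0.45, and from 3-month to 9-month cre lungs it differed by -0.37 ± 0.48 (adjusted p = 0.643). Against 9-month controls the 3 probes had log2 fold changes of -1.07, -1.43 and -1.49, from brightest to dimmest, with adjusted p-values of 0.0718, 0.0562 and 0.11.

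**Figure D3:**
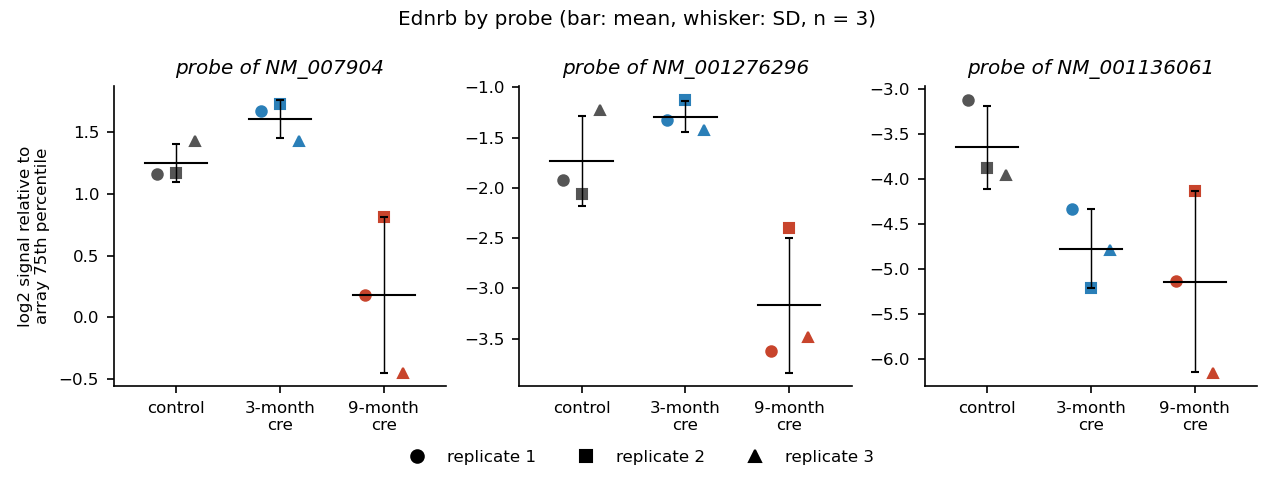
Log2 signal relative to the array 75th percentile (vertical axis) of the 3 Ednrb probes in each lung, by group, with means and SDs (n = 3 lungs per group). The 2 brighter probes place the 3-month cre lungs at or above most controls (1.43 to 1.72 and -1.43 to -1.12), and the dimmest places them below the controls (-5.21 to -4.33).

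Apln (chromosome X, 48025146 to 48034853) was at 1.88, 1.56 and 1.66 in controls, 2.24, 1.91 and 1.78 in 3-month cre lungs and 0.54, -1.06 and 0.81 in 9-month cre lungs. The 9-month cre lungs lay below all others, with replicate 2 farthest down. Apln fell by 1.88 ± 0.43 between the cre groups, 3.68-fold (adjusted p = 0.0475), and only 0.202% of genes had a lower value. The difference from controls was -1.60 ± 0.43 (adjusted p = 0.0603). That difference was called without 9-month cre replicate 2 (-1.03, adjusted p = 0.0188) and without replicate 3 (-1.96, adjusted p = 0.0392). Apln lies on the X chromosome and the groups differ in sex: the value against controls was -1.41 with sex as a covariate and -1.16 among males alone, 1 lung against 3.

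Car4 (chromosome 11, 84957754 to 84966054) encodes carbonic anhydrase 4, a surface enzyme of alveolar capillaries that speeds the exchange of carbon dioxide and bicarbonate. It was at 0.94, 0.99 and 1.38 in controls, 1.63, 2.01 and 1.79 in 3-month cre lungs and 1.00, 1.12 and 0.58 in 9-month cre lungs. Its pattern differed from that of Ednrb and Apln, as the 9-month cre lungs overlapped the controls (-0.20 ± 0.19, adjusted p = 0.502) and the 3-month cre lungs lay above both groups. Car4 fell by 0.91 ± 0.19 between the cre groups, 1.88-fold (adjusted p = 0.0402), while the 3-month value of 0.71 ± 0.19 against controls was not called (adjusted p = 0.125).

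The falls of Ednrb, Apln and Car4 between the cre groups lost their calls once slide or sex entered the fit. Within slide 2 the values were -1.40, -1.75 and -1.0 (adjusted p = 0.206, 0.238 and 0.172), and with sex as a covariate they were -1.42, -1.88 and -0.91 (adjusted p = 0.0604, 0.0694 and 0.0583). Each cre group had 1 male and 2 females, so the sex covariate could change the p-values but not the size of these differences. Among the fits that leave out 1 array each, the call held in 3 of 9 for Ednrb, 2 of 9 for Apln and 3 of 9 for Car4.

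Gpihbp1 (chromosome 15, 75596630 to 75598213), which anchors lipoprotein lipase to the capillary wall, had the narrowest range of the 10 over the 9 lungs. It was at 4.69, 4.62 and 4.68 in controls, 4.80, 4.70 and 4.63 in 3-month cre lungs and 4.63, 5.08 and 4.66 in 9-month cre lungs. The groups overlapped throughout, and the 95% interval of the difference at 9 months ran from -0.18 to 0.43 (adjusted p = 0.571).

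Plvap (chromosome 8, 71497753 to 71511806) encodes the protein of the diaphragms that span endothelial fenestrae and caveolae. It was at 5.12, 4.94 and 5.46 in controls, 4.90, 5.03 and 4.66 in 3-month cre lungs and 4.12, 4.92 and 4.63 in 9-month cre lungs. The 9-month cre lungs lay below the controls, by a narrow gap for replicate 2, and the difference of -0.62 ± 0.22 was not called (adjusted p = 0.123).

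Aplnr (chromosome 2, 85136360 to 85139923), the apelin receptor gene, was at 0.15, 0.08 and 0.26 in controls, -0.18, 0.21 and -0.18 in 3-month cre lungs and -2.65, -3.01 and 0.74 in 9-month cre lungs. Replicates 1 and 2 of that group were far below all other lungs and replicate 3 was above all others. The SD within that group was 2.07, against 0.09 in controls and 0.22 in 3-month cre lungs, and the difference from controls was -1.80 ± 0.83 (adjusted p = 0.203). Without replicate 3 it was -2.99 (adjusted p = 0.00202), and -2.78 against 3-month cre lungs (adjusted p = 0.00571), so that 1 lung decided the call. In the same lungs the ligand gene Apln had the same order, lowest in replicate 2 and highest in replicate 3, but at 0.81 in replicate 3 it was below all controls, where Aplnr was above them.

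Vwf (chromosome 6, 125552948 to 125686679) was at 5.78, 5.61 and 5.62 in controls, 5.95, 5.75 and 5.64 in 3-month cre lungs and 5.65, 6.80 and 5.60 in 9-month cre lungs. Only 9-month cre replicate 2 stood out, and the difference from controls was 0.35 ± 0.29 (95% interval -0.33 to 1.02, adjusted p = 0.469). In that lung Selp, which encodes the P-selectin stored beside von Willebrand factor, was at -2.25, within the control range of -2.30 to -2.0. Other genes listed with Vwf went both ways there. Edn1, the gene of endothelin 1 (2.84), and the venous markers Slc6a2 (3.68), Ephb4 (2.67) and Prss23 (2.99) were at their highest of the 9 lungs. The venous markers Vcam1 (1.99) and Nr2f2 (2.20) were at their lowest. The mean log2 level of the 8 venous genes, with Vwf among them, was 2.09 in that lung, the highest of the 9. Of 9 genes of platelets, which also carry von Willebrand factor, 0 were called at 9 months against controls (2 higher at an unadjusted p under 0.05, as were 14.8% of all genes). All 9 values were above 0, and for 5 of the 9 genes all 9-month cre lungs lay above all controls (17.5% of all genes). Their summed signal, in multiples of the array 75th percentile, was 12.3 to 19.2 in controls, 11.8 to 19.4 in 3-month cre lungs and 19.5 to 29.1 in 9-month cre lungs. Replicate 2 was the lowest of the 9-month cre lungs by the sum. By mean log2 level replicate 3 was the lowest (-1.11, against -0.54 and -0.72 in replicates 1 and 2). The part of platelets in the Vwf values was not tested.

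Set against Cdh5 within the same lung, the members changed unequally. The log2 level of Kdr minus that of Cdh5 was 0.26 to 0.51 in controls, 0.12 to 0.62 in 3-month cre lungs and -0.62 to 0.01 in 9-month cre lungs. For Apln the difference was -2.74 to -2.71, then -2.32 to -1.96, then -5.33 to -3.33, and for Car4 it was -3.67 to -3.02, then -2.56 to -1.99, then -3.76 to -2.87. The 9-month cre lungs thus lay below the control range for Kdr and Apln. They also lay below it for Ednrb, by a narrow gap (-4.79 to -3.46, against -3.44 to -2.98 in controls). Their range overlapped that of controls for Car4, Pecam1, Gpihbp1, Aplnr, Plvap and Vwf. The 3-month cre lungs lay above the control range for Apln and Car4, and also for Pecam1, Gpihbp1, Ednrb and Vwf. They overlapped it for Kdr, Aplnr and Plvap. Cdh5 itself was lower in all 3-month cre lungs than in the controls. These ratios have no test of their own.

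The wider endothelial marker lists place these genes among others of their kind. Of 28 pan-endothelial genes, 2 fell and 1 rose at 9 months against controls, where 2.81% of all genes fell and 3.65% rose. The list median was -0.040. The falls were Kdr and Clec14a, a surface lectin of endothelial cells (-0.79 ± 0.19, adjusted p = 0.0448). The rise was Nos3, the endothelial nitric oxide synthase, which was at 2.20, 2.31 and 2.01 in controls, 2.10, 2.04 and 2.24 in 3-month cre lungs and 3.27, 2.98 and 2.92 in 9-month cre lungs (0.88 ± 0.13, adjusted p = 0.0163). Nos3 also rose between the cre groups (0.93 ± 0.13, adjusted p = 0.0224), as the only pan-endothelial gene called there. The summed signal of the 28 genes, in multiples of the array 75th percentile, was 655 to 681 in controls, 617 to 659 in 3-month cre lungs and 652 to 665 in 9-month cre lungs, so the ranges of controls and 9-month cre lungs overlapped. Their mean log2 level was 3.62 to 3.66, 3.55 to 3.65 and 3.51 to 3.73 in the same order and overlapped as well.

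Of 12 aerocyte genes, 11 had values below 0 between the cre groups, against 53.1% of all genes, with a list median of -0.63. There 5 fell, against 3.2% of all genes, and 0 rose, against 1.79%. Beside Ednrb, Apln and Car4 these were Kitl, the gene of stem cell factor (-0.80 ± 0.12, adjusted p = 0.0243), and Rprml (-2.81 ± 0.40, adjusted p = 0.0224). Both fell against controls as well, Kitl by 0.63 ± 0.12 (adjusted p = 0.0269) and Rprml by 2.68 ± 0.40 (adjusted p = 0.0163), and the list median there was -0.51. Kitl was at 2.82, 2.94 and 3.02 in controls, 3.30, 3.03 and 2.95 in 3-month cre lungs and 2.20, 2.34 and 2.35 in 9-month cre lungs. Rprml was dim, at -6.51 on average in 9-month cre lungs, where 1 of 3 arrays had it well above background, so the size of its fall rests on values near background. Without Rprml, left out after its values were seen, the other 11 genes had 4 falls and a median of -0.47 between the cre groups, and 1 fall and a median of -0.40 against controls. The mean log2 level of the 12 genes was 2.55 to 2.74 in controls, 2.69 to 2.85 in 3-month cre lungs and 1.60 to 2.14 in 9-month cre lungs, with no overlap between the last group and the others. Without Rprml it was 3.14 to 3.30, 3.31 to 3.42 and 2.43 to 2.88. Both versions hold the members Ednrb, Apln and Car4, so their separation is not apart from the falls of those genes given above. Rprml aside, the other genes were mixed in 9-month cre replicate 2. There Kitl and Chst1 lay below all controls, Fibin, Tbx2, Emp2, Cdkn2b and Nrp1 lay within the control range, and Prx lay above it. The summed signal of the 12 genes, to which bright genes add most, was 173 to 184, 179 to 202 and 120 to 177 in multiples of the array 75th percentile, and by that measure 9-month cre lungs overlapped the controls.

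Of 9 general capillary genes, 0 were called in any comparison, and their median was -0.25 at 9 months against controls and -0.18 between the cre groups. At an unadjusted p under 0.05 they had 1 higher and 3 lower at 9 months against controls, 1 lower at 3 months, and 2 higher and 1 lower between the cre groups. Over all genes, 14.8% were higher and 12.5% lower, 11.6% and 7.09%, and 12.7% and 16% in the same 3 comparisons. After Aplnr, the largest value against controls was that of Glp1r, the glucagon-like peptide 1 receptor gene (-1.11 ± 0.48, adjusted p = 0.179). The largest positive one between the cre groups was that of Cd93, an endothelial surface lectin (0.58 ± 0.20, adjusted p = 0.108).

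No gene of the 8 arterial or the 8 venous markers was called in any comparison. The arterial medians were -0.25 at 9 months against controls and -0.27 between the cre groups, and the venous medians were 0.15 and 0.29. At an unadjusted p under 0.05 the arterial list had 1 higher and 1 lower at 9 months against controls, 0 at 3 months and 2 lower between the cre groups. The venous list had 1 lower, 1 lower, and 2 higher and 1 lower in the same order. The shares over all genes were those given for the general capillary list. The largest arterial value was that of Sox17, a transcription factor of arterial endothelium (0.73 ± 0.22, adjusted p = 0.0776), and the largest venous value between the cre groups was that of Ephb4, the venous ephrin receptor (0.67 ± 0.20, adjusted p = 0.0789). Of 7 lymphatic markers, 1 rose at 9 months against controls, Mmrn1 (1.08 ± 0.19, adjusted p = 0.0233), whose product multimerin 1 is also stored in platelets.

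**Figure D4:**
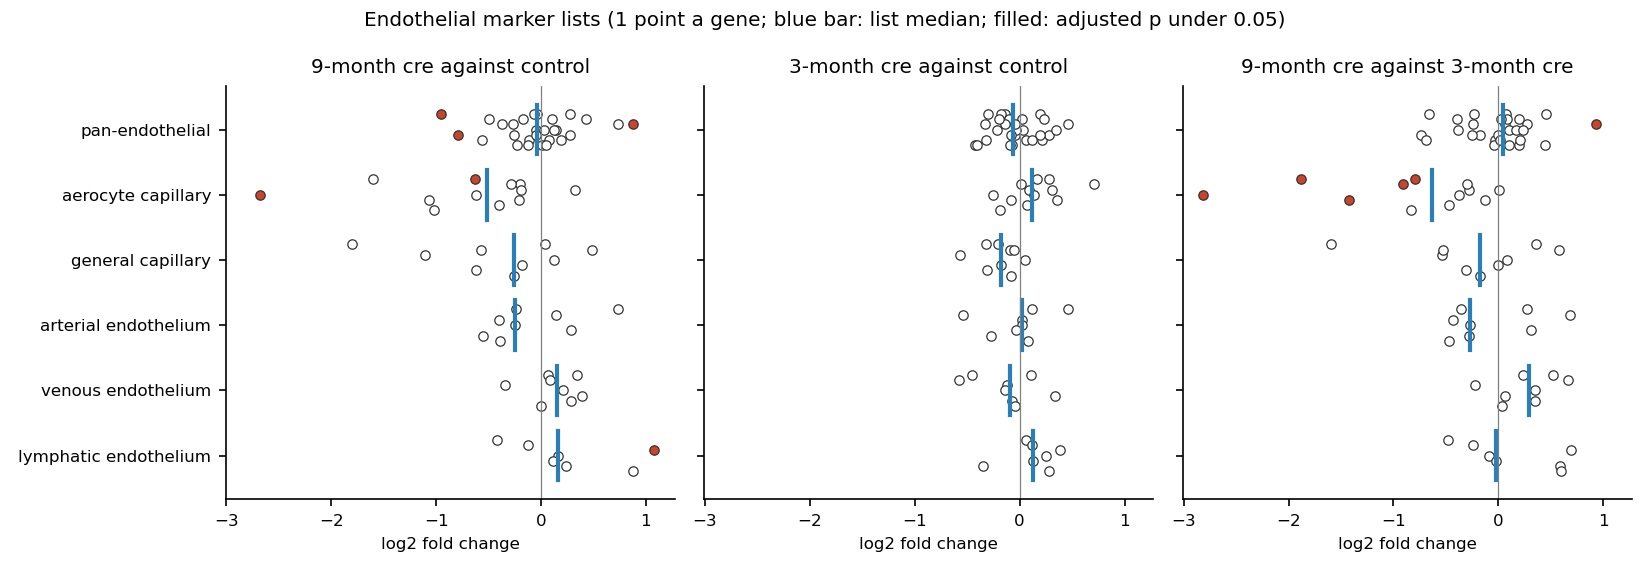
Log2 fold change (horizontal axis) of each gene of 6 endothelial marker lists in the 3 comparisons. Each point is a gene, blue bars are list medians and filled points passed an adjusted p under 0.05. Among these 6 lists the aerocyte list has the lowest median at 9 months against controls (-0.51) and between the cre groups (-0.63). The fibroblast list, not plotted, had medians of -0.55 and -0.64.

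The ligands and partners of the member receptors were read from lists by pathway. Over all genes, 3.65% rose and 2.81% fell at 9 months against controls. Of 14 genes of vascular endothelial growth factor signalling, 2 rose at 9 months against controls, Nos3 and Vegfc (0.71 ± 0.16, adjusted p = 0.0399), and 1 fell, Kdr. Vegfc, whose product acts mainly on the receptor of lymphatic vessels, was at 1.41, 1.61 and 1.27 in controls, 1.69, 1.64 and 1.65 in 3-month cre lungs and 2.00, 2.49 and 1.94 in 9-month cre lungs. All cre lungs lay above all controls. Vegfa, the main ligand of the Kdr receptor and in the alveolus a product of epithelium, is given outside the naming rule and was chosen after its values were seen. It was at 5.22, 5.35 and 4.94 in controls, 5.06, 5.29 and 5.09 in 3-month cre lungs and 4.93, 4.79 and 4.32 in 9-month cre lungs, a difference of -0.49 ± 0.18 from controls that was not called (adjusted p = 0.125).

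Of 9 tested genes of endothelin and nitric oxide signalling, 2 fell and 1 rose between the cre groups, where 3.2% of all genes fell and 1.79% rose. The falls were Ednrb and Edn3, the gene of endothelin 3, a ligand of the endothelin B receptor (-1.24 ± 0.22, adjusted p = 0.0309), and the rise was Nos3. Edn3 was at -4.87, -4.20 and -4.28 in controls, -4.01, -3.76 and -4.41 in 3-month cre lungs and -5.22, -5.18 and -5.49 in 9-month cre lungs. As for Ednrb, the 9-month cre lungs were below all others. Edn3 was dim in every group, though well above background on all 9 arrays. Against controls 1 of the 9 genes rose, Nos3, and 0 fell. Of the apelin pathway, Apln and Aplnr were tested, and the second ligand gene, Apela, was not analysed here.

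**Figure D5:**
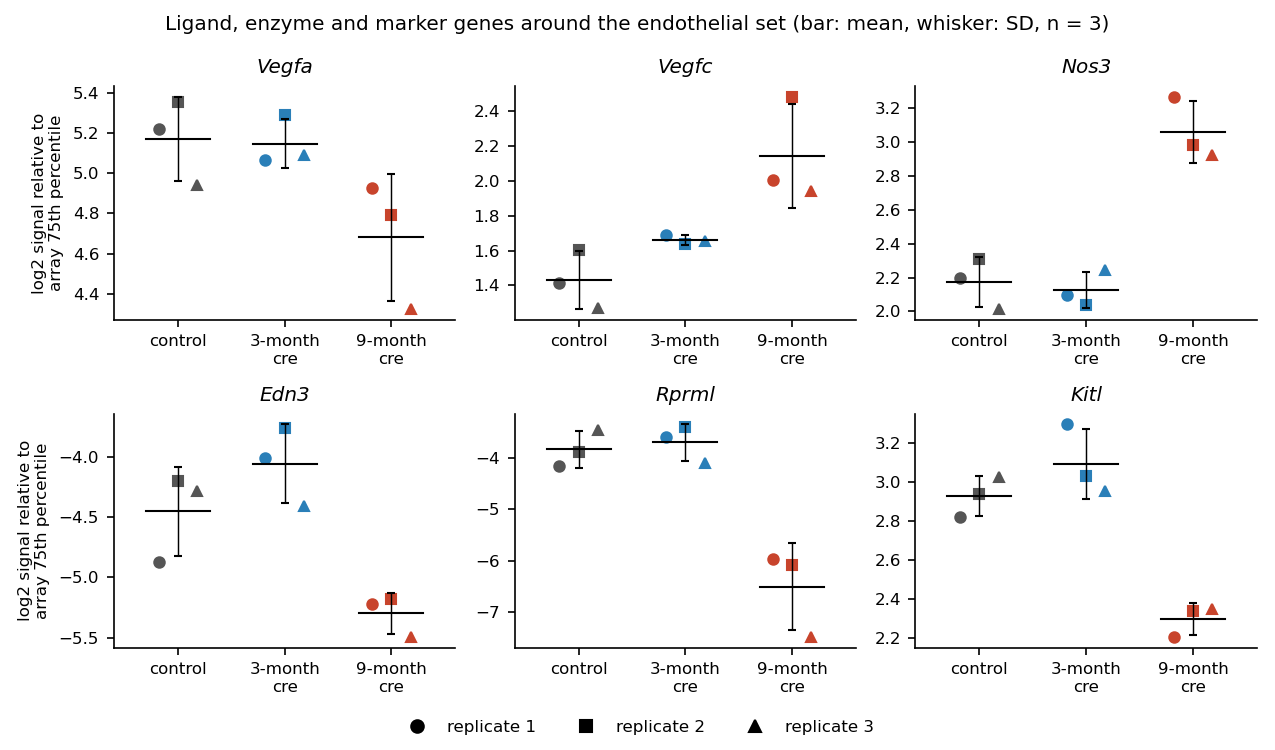
Log2 signal relative to the array 75th percentile (vertical axis, scaled separately for each gene) of 6 genes tied to the members by pathway or cell type, in each lung by group, with means and SDs (n = 3 lungs per group). In 9-month cre lungs Nos3 (2.92 to 3.27) lies above all other lungs, and Edn3 (-5.49 to -5.18), Rprml and Kitl (2.20 to 2.35) lie below them.

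Among other genes of the members' functions, few were called. Over all genes, 3.65% rose and 2.81% fell at 9 months against controls, and 1.79% rose and 3.2% fell between the cre groups. Of 9 genes of endothelial lipid handling, 1 fell in both comparisons of 9-month cre lungs, Meox2, a homeobox factor of endothelium (-0.81 ± 0.18 in each, adjusted p = 0.0406 against controls and 0.0475 against 3-month cre). Of 9 tested carbonic anhydrase genes, Car13 rose at 9 months against controls (0.97 ± 0.22, adjusted p = 0.0398), and Car8, whose product lacks enzyme activity, fell with Car4 between the cre groups (-0.91 ± 0.15, adjusted p = 0.0293). Among 10 tested genes of Weibel-Palade bodies and haemostasis, 2 rose at 9 months against controls and 0 fell. Of these Procr, the endothelial protein C receptor gene, is named here (1.07 ± 0.23, adjusted p = 0.0343). The 9-month cre arrays lay above all controls for 5 of the 10, against 17.5% of all genes, and below them for 1, against 15%. Of 13 junction and barrier genes, 0 were called in any comparison. At 9 months against controls their median was -0.26, and 4 were lower at an unadjusted p under 0.05 (12.5% of all genes).

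Markers of other lung cells moved in the same lungs. At 9 months against controls the list medians were -0.55 for fibroblasts and -0.53 for smooth muscle and pericytes, beside -0.51 for aerocytes. They were -0.44 for type 2 and -0.39 for type 1 cells. Between the cre groups the medians were -0.64, -0.36, -0.59 and -0.35 in the same order, beside -0.63 for aerocytes. Over all genes 2.81% fell and 3.65% rose at 9 months against controls, and 12.5% were lower at an unadjusted p under 0.05. Of 8 fibroblast markers, 3 fell at 9 months against controls (Npnt, Fgf10 and Col13a1), and their summed signal, in multiples of the array 75th percentile, was 230 to 254 in controls, 192 to 216 in 3-month cre lungs and 152 to 232 in 9-month cre lungs. As for the aerocyte genes, the fibroblast sums of 9-month cre lungs overlapped those of controls while their mean log2 levels did not (2.49 to 2.91 in controls, 2.57 to 2.65 in 3-month cre lungs and 1.88 to 2.20 in 9-month cre lungs). Of 8 alveolar type 2 markers, 2 fell against controls (S100g and Etv5) and 3 between the cre groups (with Slc34a2), with sums of 440 to 518, 444 to 629 and 516 to 644. Of 7 alveolar type 1 markers 0 were called against controls (3 lower at an unadjusted p under 0.05), with sums of 374 to 420, 367 to 412 and 270 to 423. Immune cell markers had medians above 0 against controls, 1.03 for macrophages and 2.20 for neutrophils at 9 months. Of 8 macrophage and monocyte markers 4 rose at 9 months (Gpnmb, Trem2, Cd68 and Cd14), with sums of 64.9 to 75.6, 92.8 to 126 and 103 to 138, and of 6 neutrophil markers 3 rose (Ngp, Camp and Mpo), with sums of 20.9 to 130, 90.4 to 145 and 49.6 to 279. Of 8 smooth muscle and pericyte markers 0 were called at 9 months (2 lower at an unadjusted p under 0.05), with sums of 95.9 to 187, 102 to 129 and 85.9 to 120. Lists of 8 heart muscle and 5 adipocyte genes had lower medians at 9 months against controls, -0.75 and -1.25, with 0 called. Between the cre groups their medians were 0.77 and -0.82. Heart muscle sums were 57.0 to 183, 27.2 to 78.6 and 54.9 to 76.1, and adipocyte sums were 5.23 to 20.8, 5.84 to 13.7 and 3.01 to 6.79. The mean log2 levels of 9-month cre lungs overlapped those of controls for the type 2, type 1 and smooth muscle lists and lay above them for macrophages (3.11 to 3.66 against 2.04 to 2.35) and neutrophils (0.56 to 3.35 against -1.42 to -0.16). The part of these cells in the values of the endothelial genes was not tested.

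Over the 9 lungs the log2 levels of Pecam1 and Cdh5 were close to unrelated (Pearson r = 0.056, Spearman rho = 0.017). Their mean is therefore no shared endothelial course, and genes are not ranked by likeness to it. The lungs share groups and slides, so these coefficients are descriptions over 9 points.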

How the data were processed

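Whole-lung total RNA was labelled with Cy3 and hybridised to 9 one-colour Agilent arrays. Per the file headers, Agilent Feature Extraction 10.7.3.1 made the deposited intensity per spot, a processed signal with background subtracted within each array and not scaled between arrays. A deposited value table of the same arrays, on an intensity scale with its normalization unstated, served as an alternative.

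Log2 processed signal was set relative to the 75th percentile of the array's non-control probes, after outlier spots were dropped and spots of a probe averaged. A probe was kept if at least 1 group had it well above background on all its arrays (37647 probes), named through RefSeq transcripts, and the brightest probe stood for a gene, giving 16843 genes. Signal brightness and the number of arrays limit precision. Groups were fitted together in limma 3.58.1 (R 4.3.3, with the data.table package 1.17.8) with 6 residual degrees of freedom. Benjamini-Hochberg adjustment of the two-sided moderated p-values ran over all genes of a comparison, and genes are said to rise or fall at an adjusted p under 0.05. The fit was tested on simulated data.

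Members, lists and the naming rule (all members, and from each list up to 4 called genes, or up to 2 by size as values) were chosen with earlier results of these data known. A few genes that it names are not reported here, nor are the genes most like the mean of Pecam1 and Cdh5, which were close to unrelated. The labels call the replicates biological. Alternatives changed the scaling, background correction, filter, probe rule, groups fitted, slide, sex, replicate block and arrays left out. A fit on male arrays and the aerocyte list without Rprml were added after seeing the data.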

Additional observations from a re-analysis of the deposited data

Results flagged for a closer look

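For 3 members the change against controls at 9 months differed from that at 3 months by the test of the difference, which equals the comparison of the cre groups because the controls cancel. The difference was -1.42 for Ednrb (-1.07 at 9 months and 0.36 at 3 months, adjusted p = 0.0368), -1.88 for Apln (-1.60 and 0.28, adjusted p = 0.0475) and -0.91 for Car4 (-0.20 and 0.71, adjusted p = 0.0402). Once slide entered the fit they were -1.40, -1.75 and -1.0 and were not called (adjusted p = 0.126, 0.148 and 0.115). Age and exposure cannot be told apart in them.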

How the results depend on the processing

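At 9 months against controls the 1087 genes called became 489 with no filter on dim probes, 185 with the 2 groups alone, 317 with the replicate block, 7 among male arrays and 0 with the slide as a block or with sex as a covariate, and ran from 158 to 1638 when 1 array was left out. Between the cre groups the 840 became 427 with scaling to the array median, 104 with no filter, 335 with the 2 groups alone, 234 with sex, 6 with the replicate block and 0 with the slide, within slide 2 or among males (0 to 1224 with 1 array left out). At 3 months against controls the 76 became 49 with normexp correction, 43 with the deposited values, 14 with no filter, 45 with probes well above background on all arrays, 389 with the 2 groups alone, 42 with the replicate block, 4 within slide 1 and 0 with slide, sex or males (1 to 322). Members called lower at 9 months against controls numbered 1, became 2 (Kdr and Ednrb) with normexp, the deposited values or the mean of probes, 0 with slide, sex, the replicate block or males, and 0 to 3 with 1 array left out. Between the cre groups the 3 members called lower became 0 with no filter, the 2 groups alone, slide, sex, the replicate block, within slide 2 or males, and 0 to 4 with 1 array left out. Where 0 genes were called in limma, 837 to 3711 had an unadjusted p under 0.05. The within-slide and male fits have fewer arrays, and their lone arrays are assumed to vary like the others; otherwise the cause was not tested. The replicate block took the adjusted p to 0.0518 for Kdr against controls and to 0.0751, 0.0778 and 0.0841 for Ednrb, Apln and Car4 between the cre groups, but the numbers did not pair the lungs: same-numbered lungs had correlations of -0.236 to 0.045 in their deviations from the group means, and lungs of different number reached 0.255. The deposited values and quantile normalization turned the split of called genes at 9 months against controls from 614 higher and 473 lower to 555 and 655, and to 524 and 583.

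Signs turned only for values that were not called: at 3 months against controls Gpihbp1 was -0.11 with quantile normalization, -0.17 with the deposited values and -0.039 with sex, Vwf -0.073, -0.086 and -0.091 in the same order, Ednrb -0.11 with the mean of its probes and Aplnr 0.052 among males. At 9 months against controls Gpihbp1 was -0.036 with quantile normalization, -0.016 with the deposited values and -0.031 among males, and Vwf -0.024 among males. Between the cre groups Cdh5 was -0.0022 with scaling to the array median and -0.14 among males, Gpihbp1 -0.062 and Vwf -0.10 among males. Leaving out 1 array gave -0.27 to 0.16 for Pecam1, -0.019 to 0.20 for Gpihbp1 and -0.049 to 0.56 for Vwf at 9 months against controls, and -0.027 to 0.21 for Cdh5, -0.065 to 0.16 for Gpihbp1 and -0.16 to 0.45 for Vwf between the cre groups.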
